A study of Mus musculus with 6 samples.

Results

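miR-101 is a small microRNA family that the mouse makes from paralogous hairpin genes, chiefly Mir101a and Mir101b. A microRNA guides the Argonaute protein to messenger RNAs through its seed, the bases near its 5′ end, and a strand that starts 1 base earlier or later therefore carries another seed. In mammalian cells, miR-101 is known to repress Ezh2, the histone methyltransferase of the Polycomb repressive complex, and Ptgs2, the inducible cyclooxygenase that makes prostaglandins, and in mouse macrophages Dusp1, the phosphatase that switches off MAP kinases after Toll-like receptor stimulation. Its sequences were followed here in the exosomes of RAW264.7 cells, a mouse macrophage line. The family was picked with earlier results of these data known, which limits its p-values too, and within it the rows of the deposited table were taken by name alone, as those named miR-101 with any letter and arm once the species prefix and the variant marks are removed. This gave 3 of 2731 rows, namely miR-101a-3p_L+1R-1, miR-101b-3p_L+1R-1 and miR-101a-5p, and no 2 of them share a sequence.

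The exosomes came from the culture supernatant of RAW264.7 cells kept on small-scale topography titanium disks (3 libraries), which the labels call micro-/nano- plates, or on smooth titanium disks (3 libraries). The small-scale topography had been made on titanium alloy by sandblasting, acid etching and alkali heat treatment, and the smooth disks had been polished. All cells were of 1 cell line, and all were grown in medium that the labels give as free of exosomes. Whether the 3 libraries per group were grown as separate cultures is not stated in the sources, which speak of independent repeats for the experiments in general but not for these libraries. Every p-value below therefore sets a difference against the spread of these libraries alone, and that spread may be technical.

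The values are normalized by the authors and are not counts. Within a library most of them are whole multiples of a common step. The step was read as 1 sequenced read and was worth 0.466 to 1.55 between libraries. On that scale the listed sequences of a library summed to 163845 to 604081 reads. This covers only what the authors' filters left in the table and is not the sequencing depth. The library totals below are such sums of listed values. Sequences under about 5 reads are mostly not listed, so a listed 0 does not give an upper limit. All 5 microRNA markers used for macrophages and blood (miR-21, miR-142, miR-146a, miR-155 and miR-223) were listed in at least 1 library, and 4 of them in all 6, while miR-223 was at 0 in 2 libraries of small-scale topography. Their summed level was 38.5% to 46.2% of the library total on small-scale topography, against 40.5% to 46.6% in smooth libraries. Nearly all of this sum was miR-21, at normalized values of 80615 to 130666 over the 6 libraries. The other 4 markers reached at most 498, for miR-146a in smooth replicate 1, which is less than the 2255 to 3726 of the liver marker miR-122. The sum therefore says little about those 4 markers. The 2 liver markers, miR-122 and miR-192, made up 1.15% to 1.63% on small-scale topography, against 0.821% to 1.63% in smooth libraries. Of the 3 muscle markers, miR-1 and miR-206 were at 0 in every library and miR-133 was listed in 1 smooth library (up to 0.000828%). Of the 4 mesenchymal markers, miR-145 was at 0 in every library, and miR-143, miR-199a and miR-214 summed to 0.188% to 0.331% on small-scale topography, against 0.242% to 0.336% in smooth libraries. The part of these other cell types in the miR-101 values was not tested.

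The 3 sequences are shown because the paralogs differ by 1 base and because their 5′ ends set their seeds. They are written 5′ to 3′ with U for the T of the table, and capitals mark the seed, bases 2 to 8.
miR-101a-3p_L+1R-1: gUACAGUAcugugauaacuga
miR-101b-3p_L+1R-1: gUACAGUAcugugauagcuga
miR-101a-5p: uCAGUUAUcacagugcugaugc
Both 3p sequences are 21 nt long and differ by the single substitution A17G, counted from 1 at the 5′ end with the base of miR-101a first. They share the seed UACAGUA.

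The mature forms that RefSeq annotates for the mouse (GRCm38.p6) are given for comparison, again with bases 2 to 8 in capitals.
mmu-miR-101a-3p: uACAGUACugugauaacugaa
mmu-miR-101b-3p: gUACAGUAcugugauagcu
mmu-miR-101c: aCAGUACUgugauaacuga
The 3 rows carry rat names, and the marks L+1 and R-1 stand for 1 base more at the 5′ end and 1 base less at the 3′ end than the entry that the program named. The rat entries were not used here. Set against the mouse forms, the deposited miR-101a-3p starts 1 base earlier and ends 1 base earlier, so that its seed is UACAGUA where the annotated form has ACAGUAC. The deposited miR-101b-3p begins at the annotated mouse 5′ end and is 2 bases longer at the 3′ end, so its L+1 mark does not describe a shift from the mouse form. The annotated mouse miR-101c, of 19 nt, lies whole within the deposited miR-101a-3p sequence from its base 3 on, and no row carries its name. No row was listed for the mouse miR-101b-5p either.

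The hairpins show where these sequences lie, with the listed sequences in capitals.
Mir101a hairpin: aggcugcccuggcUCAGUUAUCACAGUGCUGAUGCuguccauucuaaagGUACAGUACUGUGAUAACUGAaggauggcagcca
Mir101b hairpin: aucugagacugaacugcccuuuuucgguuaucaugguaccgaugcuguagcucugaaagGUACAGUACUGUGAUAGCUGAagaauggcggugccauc
In GRCm38, the Mir101a hairpin occupies chromosome 4 bases 101346945 to 101347027, minus strand, and lies within an exon of the long non-coding RNA gene E130102H24Rik. In it, miR-101a-3p_L+1R-1 matched from 101346958 to 101346978 and miR-101a-5p from 101346993 to 101347014. The Mir101b hairpin occupies chromosome 19 bases 29135279 to 29135375, plus strand, inside an intron of the protein-coding gene Rcl1, and miR-101b-3p_L+1R-1 matched from 29135338 to 29135358. In a search of 141767 annotated mouse transcripts, each sequence was found in no other gene than its own hairpin gene and, for Mir101a, the surrounding non-coding RNA.

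Among 533 distinct sequences with a microRNA name, miR-101b-3p_L+1R-1 held rank 10 by its mean over the 6 libraries and miR-101a-3p_L+1R-1 rank 25. Within single libraries, miR-101b-3p_L+1R-1 held ranks 12, 9 and 6 in small-scale topography replicates 1 to 3, against 12, 10 and 11 in smooth replicates 1 to 3. miR-101a-3p_L+1R-1 held ranks 27, 19 and 17 on small-scale topography, against 35, 28 and 27 in smooth libraries. The neighbours of miR-101b-3p_L+1R-1 in this order were let-7c-5p, with a mean normalized value of 3994, and miR-24-3p, with 3434, against 3873 for miR-101b itself. Those of miR-101a-3p_L+1R-1, at 1171, were miR-29a-3p_R-3 with 1271 and miR-15b-5p_R-1 with 1066. The libraries of these neighbours overlapped with those of the miR-101 sequence beside them, so the order among them is not larger than the spread. miR-101a-5p, at a mean of 0.826, held rank 455 and tied with its neighbours miR-1946b_R-7_1ss1GA and miR-6916-5p, both listed only in smooth replicate 1 as well. The 3 miR-101 rows summed to 1.70%, 1.98% and 2.71% of the library total in small-scale topography replicates 1 to 3, against 1.44%, 1.89% and 1.86% in smooth replicates 1 to 3. The groups overlapped, with means of 2.13% ± 0.523 for small-scale topography and 1.73% ± 0.253 for smooth (SD, n = 3).

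**Figure D1:**
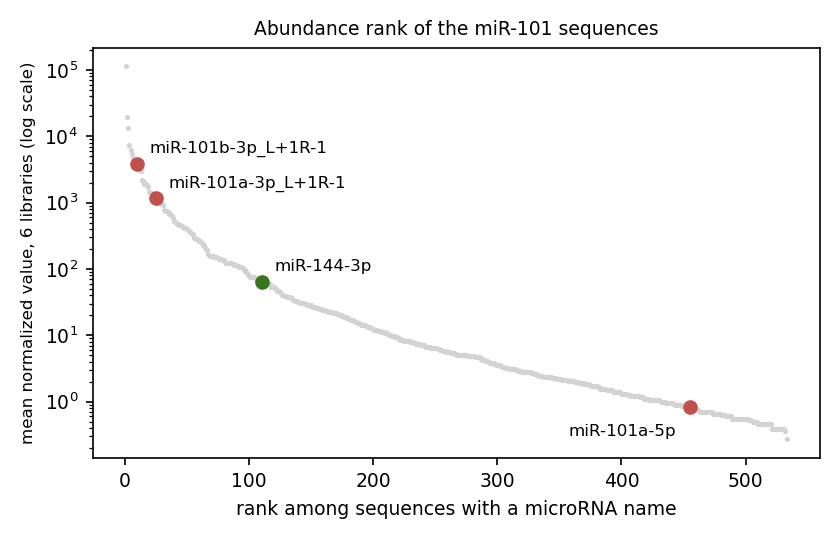
Mean normalized value over the 6 libraries (log scale) of the 533 distinct sequences with a microRNA name, in grey, against their rank. miR-101b-3p_L+1R-1 at rank 10 and miR-101a-3p_L+1R-1 at rank 25 stand far above miR-144-3p at rank 111 and miR-101a-5p at rank 455.

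miR-101a-3p_L+1R-1 had normalized values of 836, 1386 and 1914 in small-scale topography replicates 1 to 3, against 796, 1138 and 957 in smooth replicates 1 to 3. Of the 3 libraries of small-scale topography, 2 were above every smooth library, and the lowest lay between the smooth values, so the groups overlapped. The group means were 1378 ± 539 on small-scale topography, against 964 ± 171 in smooth libraries (SD, n = 3 each). The log2 fold change of small-scale topography over smooth on the log2(value + 1) scale was 0.45 (standard error 0.28, 95% interval -0.12 to 1.02), with an unadjusted p = 0.119 and an adjusted p = 0.823 from limma. With 271 of 536 tested sequences (50.6%) above 0, a positive sign is no result by itself. Of the 536, 305 carry a microRNA name, and the share above 0 among these alone was not counted. The exact permutation test of the normalized values gave p = 0.3 (two-sided), where 3 libraries against 3 allow no p under 0.1.

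miR-101b-3p_L+1R-1 had 2739, 4160 and 5630 in small-scale topography replicates 1 to 3, against 3119, 4189 and 3404 in smooth replicates 1 to 3. Small-scale topography held both the lowest and the highest of the 6 values, and only its replicate 3 was above every smooth library. The means were 4176 ± 1446 on small-scale topography, against 3571 ± 554 in smooth libraries (SD, n = 3 each), and the log2 fold change was 0.18 (standard error 0.27, 95% interval -0.37 to 0.73), with an unadjusted p = 0.517 and an adjusted p = 0.870 from limma. By the exact permutation test (two-sided), p was 0.7. Without small-scale topography replicate 3, the log2 fold change was -0.070 for miR-101b-3p_L+1R-1 and 0.17 for miR-101a-3p_L+1R-1, and without small-scale topography replicate 1 they were 0.45 and 0.77.

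**Figure D2:**
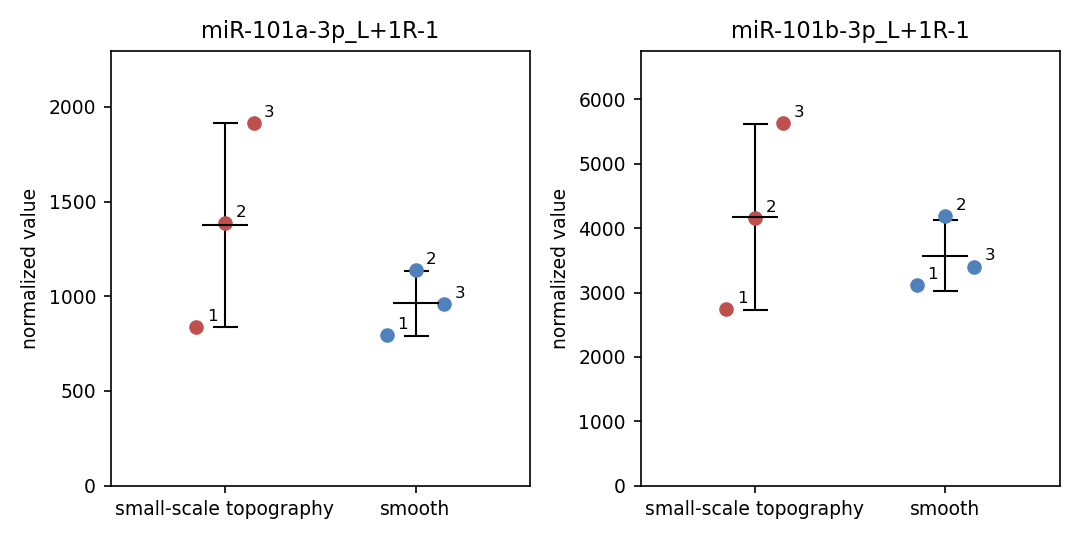
Normalized value of miR-101a-3p_L+1R-1 (left) and miR-101b-3p_L+1R-1 (right) in each library, numbered by replicate, with the mean and SD of the 3 libraries in black. For both sequences replicate 1 is the lowest and replicate 3 the highest library of small-scale topography, and the range of the smooth libraries lies inside that of small-scale topography except for the 796 of miR-101a in smooth replicate 1.

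Neither of the tested miR-101 sequences passed the adjusted threshold, and over all 536 sequences tested by limma 0 passed it (0%), with 12 (2.24%) at an unadjusted p under 0.05, of which 3 (0.56%) were higher on small-scale topography. The groups did not overlap in 37 of the 536 (6.9%), of which 10 (1.87%) were higher on small-scale topography, and neither miR-101 sequence is among these. The median log2 fold change of the 536, which include candidates without a microRNA name, was 0.01. The intervals above include a decrease as well as an increase to 2.03-fold for miR-101a-3p_L+1R-1 and to 1.65-fold for miR-101b-3p_L+1R-1, so changes up to these sizes are not excluded. These limits rest on limma's variance, which borrows from the other sequences. Without the trend that ties the variance to the mean, the standard error was 0.48 for miR-101a-3p_L+1R-1 and 0.46 for miR-101b-3p_L+1R-1. Larger changes are therefore not excluded either. miR-101a-3p_L+1R-1 rested on 650 to 2441.5 reads and miR-101b-3p_L+1R-1 on 2130 to 8988.5 reads in a library, which gives a counting error of at most 3.92% of the value. That figure covers counting error only and leaves out what PCR and library preparation add. The SD between libraries of miR-101a-3p_L+1R-1 was 39.1% of the mean on small-scale topography, against 17.7% in smooth libraries. For miR-101b-3p_L+1R-1 it was 34.6% on small-scale topography, against 15.5% in smooth libraries.

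**Figure D3:**
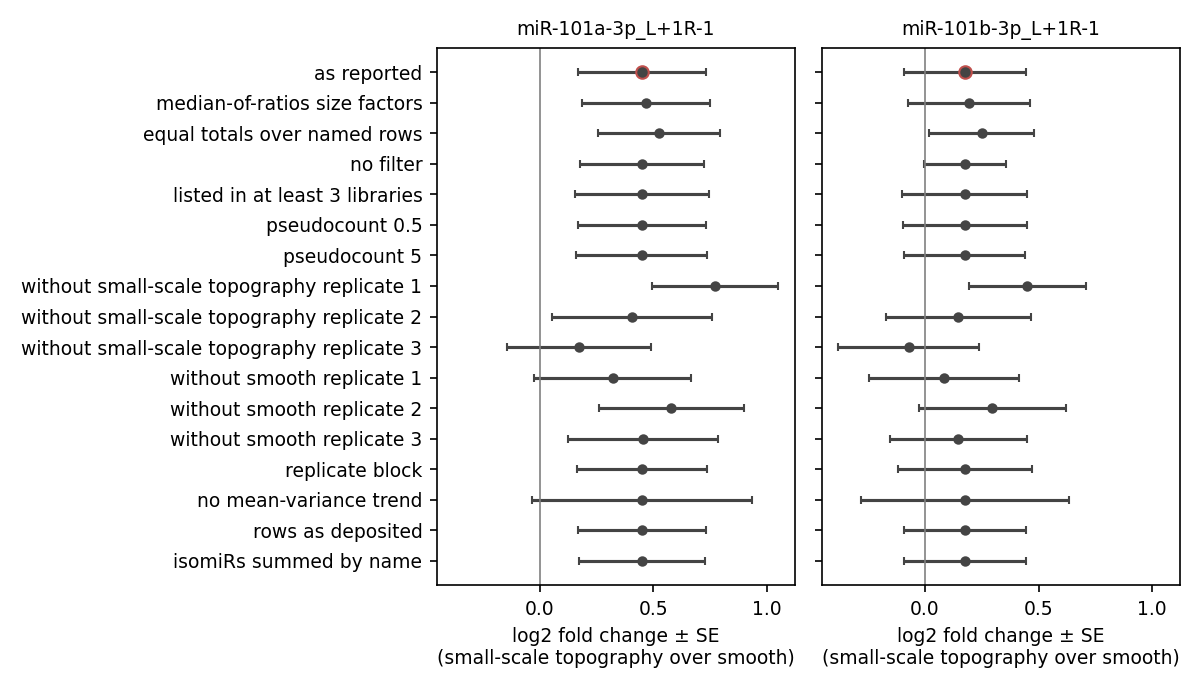
Log2 fold change of small-scale topography over smooth with its standard error for miR-101a-3p_L+1R-1 (left) and miR-101b-3p_L+1R-1 (right), as reported (top, in red) and under each alternative. All values for miR-101a lie above 0, and the 1 value below 0 for miR-101b, -0.070, is that without small-scale topography replicate 3.

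miR-101b-3p was the more abundant paralog in every library, and its share of the 2 3p sequences did not overlap between the groups, which is described here without a test. The share was 76.6%, 75.0% and 74.6% in small-scale topography replicates 1 to 3, against 79.7%, 78.6% and 78.0% in smooth replicates 1 to 3. Every library of small-scale topography was below every smooth library. The means were 75.4% ± 1.05 on small-scale topography, against 78.8% ± 0.820 in smooth libraries (SD, n = 3 each), a difference of -3.36 percentage points. As a ratio, 3.07 ± 0.179 reads of miR-101b stood to 1 of miR-101a on small-scale topography, against 3.72 ± 0.184 in smooth libraries.

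The gap between the nearest libraries of the 2 groups was 1.43 percentage points, and their 95% Wilson intervals overlapped, at 75.0% to 78.1% in small-scale topography replicate 1 and 76.7% to 79.4% in smooth replicate 3. These intervals cover counting error only, since reads made by PCR are not independent molecules. Among 53 pairs of lettered paralogs of the same arm that were listed in all 6 libraries, miR-101 included, the ratio of the paralogs did not overlap between the groups in 7 (13.2%). The miR-101 pair is 1 of these 7, and some pairs have a member in common. A large part of the 53 pairs set 1 let-7 member against another, and all let-7 pairs overlapped, so the 7 come from other families. The log2 ratio of miR-101b to miR-101a was lower by 0.28 on small-scale topography. The median size of this difference over the pairs was 0.15, the value of let-7b-5p and let-7c-5p. A larger difference was seen in 13 pairs, all outside let-7, where it reached at most 0.24 in size. The ratio was described and not tested, because it is a score made from the members. With 1 library left out, the difference in the share was -3.96 to -2.92 percentage points.

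**Figure D4:**
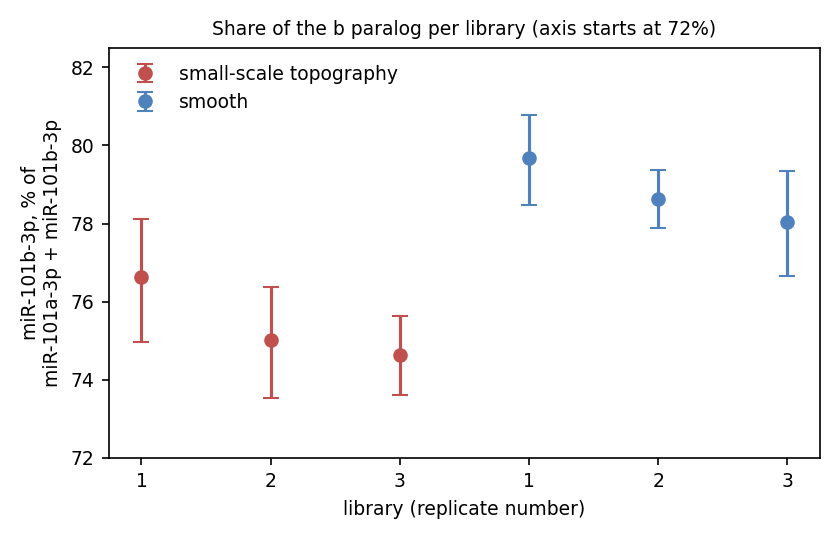
Share of miR-101b-3p in the sum of miR-101a-3p and miR-101b-3p per library, with 95% Wilson intervals for counting error (vertical axis from 72%). The 3 libraries of small-scale topography lie at 74.6% to 76.6%, below the 78.0% to 79.7% of the smooth libraries.

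The 2 rows may not be fully separate, as their read numbers in the smooth libraries show. In smooth replicate 2, miR-101a-3p_L+1R-1 stood at 2441.5 reads and miR-101b-3p_L+1R-1 at 8988.5 reads, which sum to 11430. In smooth replicate 3 they stood at 794.5 and 2824.5 reads, which sum to 3619. In the other libraries both were whole, with 650 of miR-101a and 2130 of miR-101b in small-scale topography replicate 1, 892 and 2678 in its replicate 2, 1821 and 5357 in its replicate 3, and 964 and 3777 in smooth replicate 1. Values that end on 0.5 of a read in both rows of a library, with a whole sum, are what a read divided equally between the paralogs gives. Any read of at least 18 nt, the shortest kept, that lies within a listed sequence covers base 17, where the paralogs differ. How many reads were divided, and by what rule, is not given in the sources used here, and its part in the share of miR-101b was not tested. Over the whole table, 6.83% to 10.5% of the values listed in a library ended on 0.5 of a read.

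The 5p arm of Mir101a was hardly seen. miR-101a-5p was listed at 0 in every library of small-scale topography, against 4.95 in smooth replicate 1, which is 6 reads, and 0 in smooth replicates 2 and 3. In smooth replicate 1 it made up 0.619% of the reads of the Mir101a arms. The listing limit of about 5 reads is worth 5.25 to 7.77 on small-scale topography, against 6.03 in smooth replicate 3, so a level of 4.95 could be listed at 0 there. In smooth replicate 2 the limit is worth 2.33, below the 4.95 of smooth replicate 1, though a listed 0 gives no firm upper limit there either. The sum of the values was under the minimum of 20 for the test.

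A 5′ end that is 1 base longer than the named microRNA is uncommon in the table. Of the 305 tested sequences with a microRNA name, 44 (14.4%) carry any mark for a shifted 5′ end and 11 (3.61%) the mark L+1. Over all 25 named sequences with L+1, miR-101b-3p_L+1R-1 held 68.3% and miR-101a-3p_L+1R-1 20.7% of the summed mean value, and the next was miR-425-3p_L+1R-1_1ss11AG with 4.38%. miR-101b carries this mark although its 5′ end is the one annotated for the mouse.

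No other of the 2704 distinct sequences, candidates without a microRNA name included, had the bases 2 to 8 of a miR-101 sequence. The nearest named relative was miR-144-3p, known from red blood cells, which is shown for the place of the shared letters.
miR-144-3p: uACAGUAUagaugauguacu
Its bases 2 to 7 are those of the annotated mouse miR-101a-3p, and the seed UACAGUA of the deposited miR-101 sequences stands at its bases 1 to 7. miR-144-3p had normalized values of 57.9, 34.2 and 93.5 on small-scale topography, against 78.4, 39.6 and 80.7 in smooth libraries, and its log2 fold change was -0.14 (standard error 0.50, limma's unadjusted p = 0.774 and adjusted p = 0.943). Its groups overlapped, and miR-101b-3p_L+1R-1 was 60.5 times as abundant by the mean. The erythroid markers miR-144, miR-451 and miR-486 together made up 0.0333% to 0.0430% of the library total on small-scale topography, against 0.0249% to 0.0403% in smooth libraries, with miR-451 at 0 in smooth replicate 3. The other sequences that shared bases 2 to 7 with a deposited or annotated miR-101-3p were each listed in 1 library only. They were miR-582-5p_L+1R-1, at 28.1 in smooth replicate 1, and 3 candidates without a microRNA name, PC-3p-801286_5, PC-5p-661276_6 and PC-5p-751442_5, at 5.25 to 6.31.

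The 2 miR-101-3p sequences moved together across the libraries, with a Pearson r of 0.96 of their log2(value + 1) over 6 libraries. This is a description, since both share libraries, scaling and possibly reads. Of 120 other named sequences listed in all 6 libraries with a mean of at least 50, the most similar to both was miR-148b-3p, with r = 0.89 for miR-101a and 0.93 for miR-101b. miR-148b-3p varied less, with 465, 489 and 584 on small-scale topography, against 462, 524 and 492 in smooth libraries. Next for miR-101a were miR-5106_R-4_1ss1AG with r = 0.63 and miR-125b-2-3p_R-2_1ss11CT with 0.62. Next for miR-101b were miR-125b-2-3p_R-2_1ss11CT with r = 0.80 and miR-21-5p, the most abundant sequence of the table, with 0.77.

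**Figure D5:**
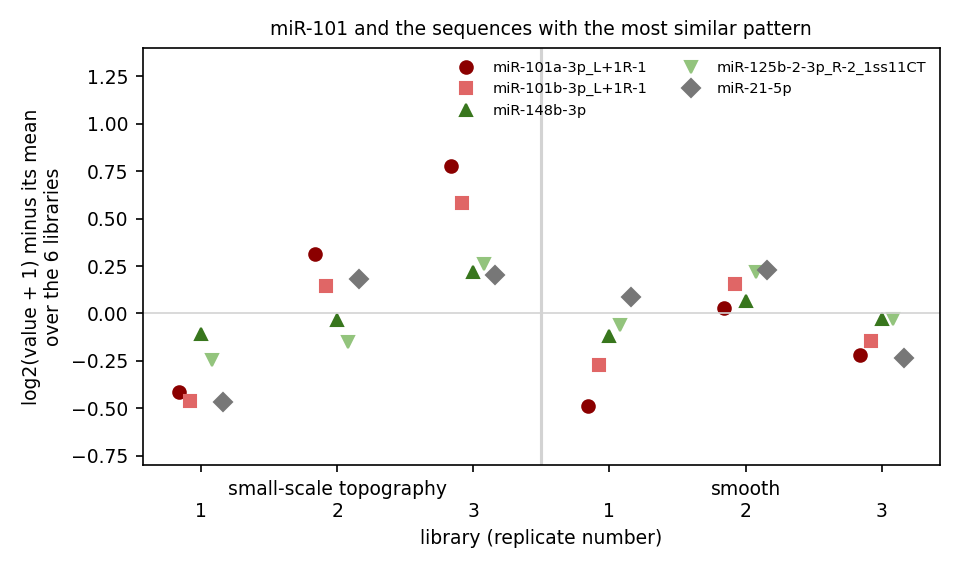
log2(value + 1) minus its mean over the 6 libraries for the 2 miR-101-3p sequences and 3 of the most similar sequences, by library. Of the 5 plotted sequences the miR-101 pair spans the widest range, lowest in small-scale topography replicate 1 or smooth replicate 1 and highest in small-scale topography replicate 3.

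Of a list of 10 microRNAs known to repress Ezh2, 8 were in the table and 7 tested, of which 0 passed the adjusted threshold and 0 had an unadjusted p under 0.05. Their log2 fold changes were positive in 2 and negative in 5, with a median of -0.16 beside 0.01 for all sequences tested. All sequences tested include candidates without a microRNA name, while every list member has one. Under the filter that kept sequences listed in at least 3 libraries, the median was -0.08 over 447 sequences. The most abundant members of the list belong to the let-7 family, whose members restrain growth and keep cells differentiated. let-7b-5p was at 0.07 (standard error 0.26), let-7c-5p at -0.08 (standard error 0.27) and let-7a-5p at 0.09 (standard error 0.28) on the log2 fold change scale.

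A second list, drawn up around Dusp1 and Ptgs2, held 7 microRNAs linked to these targets or to macrophage activation and its feedback. miR-26b-5p stands in both lists. All 7 were in the table, as 9 tested sequences, 1 with a positive and 8 with a negative log2 fold change (median -0.53), and 0 passed the adjusted threshold. Of the 536 sequences in the fit, 50.6% were above 0, with a median of 0.01. These again include candidates without a microRNA name, and over sequences listed in at least 3 libraries the median was -0.08. miR-21-5p and miR-146a-5p each count with 2 sequences, and 3 of the 9 were not listed in all 6 libraries. The median of the list, -0.53, is the value of 1 of these, miR-199a-5p_R-2, which was listed in 3 libraries and has a standard error of 1.69. Its most abundant members were miR-21-5p, which rises on macrophage activation, with a log2 fold change of -0.05 (standard error 0.36), miR-199a-3p_R-1, better known from mesenchymal cells, with -0.23 (standard error 0.27), and the more abundant sequence named miR-146a-5p, which dampens Toll-like receptor signaling, with -1.06 (standard error 0.36). In limma's fit, only this miR-146a-5p sequence had an unadjusted p under 0.05, with an unadjusted p = 0.00575 and an adjusted p = 0.823, beside 2.24% of all sequences tested.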

How the data were processed

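Exosomal small RNA of RAW264.7 cells was analysed from the deposited table of normalized values, a signal per sequence and library that the authors made with ACGT101-miR from TruSeq small RNA libraries. They had trimmed the adapter, discarded reads outside 18 to 26 nt and dropped what matched mRNA, repeats or other RNA families. For the scaling, the program version, the miRBase release and the build, the sources used here give nothing. In the copy used, 1 line was empty.

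The value of 1 read was taken as the largest step of which at least 85% of the listed values were whole multiples (tolerance 0.02 reads). By this step 87.9% to 92.7% of values were whole and 98.4% to 99.5% whole or at 0.5 of a read, so no test for counts was run.

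The test was limma (eBayes with a mean-variance trend) on log2(value + 1), two-sided, with Benjamini-Hochberg adjustment at 0.05, over 536 distinct sequences with a sum of at least 20. The design had also foreseen a test for counts, had the table held them. The fit was also run on simulated data with independent values and changes larger than those of the miR-101 sequences. That run therefore says nothing on the power for changes as small as these. The exact permutation test served for single values. Shares and sums of members were described without a test. Sequences and hairpins were from the deposited table and RefSeq (GRCm38.p6), where all 3 rows matched, and host genes from GENCODE M21 (GRCm38).

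The sequences named are all miR-101 rows, those sharing their seed or bases 2 to 7, their neighbours in abundance, the 3 most similar in pattern, and the 3 most abundant list members listed in all 6 libraries. Markers of other cell types and the next L+1 sequence were also named. The family and the lists were chosen with earlier results of these data known, while the rows of the family were taken by name, and the comparison with other paralog pairs was added after the miR-101 ratios had been seen. Alternatives were other scalings, filters and pseudocounts, each library left out, the replicate number as a block, no trend, isomiRs summed by name, and repeated rows kept. Software was R 4.3.3, limma 3.58.1, Matplotlib 3.10.9, SciPy 1.17.1, pandas 2.3.3, NumPy 2.4.6 and Python 3.11.15.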

Additional observations from a re-analysis of the deposited data

How the results depend on the processing

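Under the 10 alternatives that kept all libraries, the log2 fold change was 0.45 to 0.52 for miR-101a-3p_L+1R-1 (adjusted p = 0.494 to 0.964 from limma) and 0.18 to 0.25 for miR-101b-3p_L+1R-1 (0.494 to 0.964). With 1 library left out it was 0.17 to 0.77 for miR-101a and -0.070 to 0.45 for miR-101b, where the change of sign came without small-scale topography replicate 3. The unadjusted p of miR-101a was 0.0146 without small-scale topography replicate 1, but the adjusted p was 0.837. The number of sequences past the adjusted threshold was 0 in all 16 alternatives. The number at an unadjusted p under 0.05, 12 as reported, was 36 without the filter, 31 without small-scale topography replicate 2, 30 without smooth replicate 3, 6 without smooth replicate 1, and 8 to 18 otherwise. The difference in the miR-101 total, 1019 in normalized value, was 24.2 to 2009 with 1 library left out, the lowest without small-scale topography replicate 3.

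Whether the replicate numbers pair the libraries is not stated in the paper. The values showed no clear pairing, but correlations this weak with 3 libraries per group cannot decide it. Deviations from the group means of libraries with the same number correlated at -0.03, 0.10 and 0.02, and small-scale topography replicate 1 correlated best with smooth replicate 3. With the replicate number as a block, the log2 fold change was 0.45 (standard error 0.29) for miR-101a and 0.18 (standard error 0.29) for miR-101b, 0 sequences passed the adjusted threshold, and 18 had an unadjusted p under 0.05. How far depth limits the miR-101-3p values was not tested, and miR-101a-5p, at 6 reads in 1 library, was too low for the test.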
